A study of Mus musculus with 8 samples.

Results

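The genes described here are 40 collagen, extracellular matrix and stromal cell genes among the 48440 genes of an expression table of sorted islet macrophages. The 40 were listed by name and found by their symbol in the table, each in 1 row. The list was chosen by reference to earlier results of the same high-fat diet versus chow comparison, among them calls of collagen genes and fibroblast transcript levels per library, so every difference between diets below is a description and not independent evidence. CD11b+ F4/80+ cells, a gate that holds macrophages, came from pancreatic islets of male wild-type C57BL/6J mice aged 16 weeks. High-fat diet (HFD) libraries came from mice given food with 45% fat, 20% protein and 35% carbohydrate for 8 weeks from 8 weeks of age, and chow libraries from mice given food with 8% fat, 21% protein and 71% carbohydrate for the same time. There were 4 HFD libraries (replicates 5 to 8) and 4 chow libraries (replicates 1 to 4), each pooled from 2 mice and amplified from 500 pg of RNA.

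Collagens are triple-helical proteins that give tissue its tensile strength, and laminins, nidogen and collagen IV form the basement membrane that surrounds blood vessels and, in part, the islet. In the pancreas these genes are mainly transcribed by fibroblasts, by stellate cells, which store vitamin A at rest and make fibrillar collagen when activated, and by mural cells (pericytes and smooth muscle) around vessels. Some of them, such as fibronectin, are also known to be expressed by macrophages. In bulk RNA, fewer cells of a type and less RNA per cell cannot be told apart. Macrophages were enriched by the CD11b+ F4/80+ gate, and whether stromal cells or their RNA came through it in some libraries was not tested, which bears on every matrix gene level below.

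Library totals ran from 4288665 to 6391247 counts. Levels are in CPM, counts divided by a library total scaled by TMM (trimmed mean of M-values), and a count of 0 in 1 library allows up to 0.521 to 0.632 CPM in HFD and 0.468 to 0.708 CPM in chow libraries, taken as 3 counts and covering counting error only. The macrophage list of 10 genes, which includes the sort markers Adgre1 (F4/80) and Itgam (CD11b), summed to 5556, 6370, 5587 and 5082 CPM in the HFD libraries and 7161, 5248, 6102 and 5241 CPM in the chow libraries, in replicate order. All 10 macrophage genes had counts in every library. Matrix and stromal transcripts were thus a small part of the RNA, 0.0352% to 0.119% of the scaled counts in HFD and 0.0229% to 0.0412% in chow.

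Promoter windows of 4 of the genes are shown because their levels behaved differently in the libraries. Col3a1, Col5a1 and Col6a3 had at most 9 counts in the 4 chow libraries together, whereas Rgs5 was higher in 3 of 4 chow libraries than in HFD replicates 5 to 7; Rgs5 was chosen after its values were seen. Each window is the 250 bases before the RefSeq start on GRCm38.p6, written 5′ to 3′ on the gene's own strand. Capitals mark matches on either strand to 3 motifs. The first is the CCAAT box, which reads ATTGG on the other strand. The second is the TATA box searched as TATAAA, which reads TTTATA on the other strand. The third is the GC box searched as GGGCGG, which reads CCGCCC on the other strand. The windows are chr1:45311288-45311537 (plus strand) for Col3a1, chr2:27886175-27886424 (plus strand) for Col5a1, chr1:90843972-90844221 (minus strand) for Col6a3 and chr1:169655251-169655500 (plus strand) for Rgs5.
Col3a1: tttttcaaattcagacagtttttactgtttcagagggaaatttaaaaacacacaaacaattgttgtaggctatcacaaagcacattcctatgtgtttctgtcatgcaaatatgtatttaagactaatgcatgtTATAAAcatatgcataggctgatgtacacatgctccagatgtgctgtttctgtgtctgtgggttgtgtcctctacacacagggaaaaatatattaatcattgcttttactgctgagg
Col5a1: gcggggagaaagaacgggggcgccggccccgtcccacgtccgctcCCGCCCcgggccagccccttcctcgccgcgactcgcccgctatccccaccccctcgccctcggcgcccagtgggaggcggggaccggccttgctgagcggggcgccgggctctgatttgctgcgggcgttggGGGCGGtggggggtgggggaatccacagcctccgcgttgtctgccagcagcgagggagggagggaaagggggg
Col6a3: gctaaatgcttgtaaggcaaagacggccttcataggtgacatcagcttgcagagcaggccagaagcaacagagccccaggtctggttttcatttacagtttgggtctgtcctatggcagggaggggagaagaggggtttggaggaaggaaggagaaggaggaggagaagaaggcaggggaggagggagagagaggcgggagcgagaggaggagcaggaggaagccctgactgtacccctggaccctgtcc
Rgs5: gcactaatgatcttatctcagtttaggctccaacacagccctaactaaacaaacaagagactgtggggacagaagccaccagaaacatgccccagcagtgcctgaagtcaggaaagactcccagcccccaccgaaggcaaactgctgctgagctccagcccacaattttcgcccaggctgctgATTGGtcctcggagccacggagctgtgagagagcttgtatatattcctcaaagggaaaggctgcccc

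The Col3a1 window held 1 TATAAA starting 117 bases before the start, and 35.2% of its bases were G or C. Col5a1 had 2 GGGCGG matches, 205 and 73 bases before the start, in a window with 76.4% G or C. The Rgs5 window held 1 CCAAT on the opposite strand 67 bases before the start, and that of Col6a3 held none of the 3 motifs. The median over all promoters was 52.4% G or C, so Col3a1 lay below it and Col5a1 above it. The table had promoters for 25 of the 40 genes, 28 windows in all. Counted over the 250 bases before the start, CCAAT was in 8 of the 28, against 33.8% of all 32851 promoters. TATAAA was in 2, against 12.4%, and GGGCGG in 15, against 32.7%. None of these motifs overlapped another in the windows shown, and a match is a description of letters only.

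More of the 40 genes were detected in each HFD library than in any chow library, with a large step in HFD replicates 5 to 7 and a small one in HFD replicate 8. Of the 40 genes, 32, 33, 31 and 17 had at least 1 count in HFD replicates 5, 6, 7 and 8, against 8, 13, 13 and 15 in chow replicates 1 to 4. The number of all genes with a count was 12981, 13448, 13098 and 12953 in HFD and 11902, 12859, 12240 and 13057 in chow, so HFD replicate 8 had about as many detected genes as HFD replicate 5. Summed over the 40 genes, levels were 1187, 719, 758 and 352 CPM in HFD replicates 5 to 8, against 229, 298, 412 and 307 CPM in chow, with HFD replicate 8 below chow replicate 3. Col14a1 and Rgs5 made up most of the chow sum. Both had a lower mean in HFD and overlapped between the diets, as did other genes that were kept, such as Col15a1. Without them the sums were 987, 517, 611 and 61.7 CPM in HFD and 47.6, 43.2, 82.7 and 98.9 CPM in chow. Leaving them out was a step added after seeing the data, and it raised the log2 ratio of the group means from 1.27 to 3.00.

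**Figure D1:**
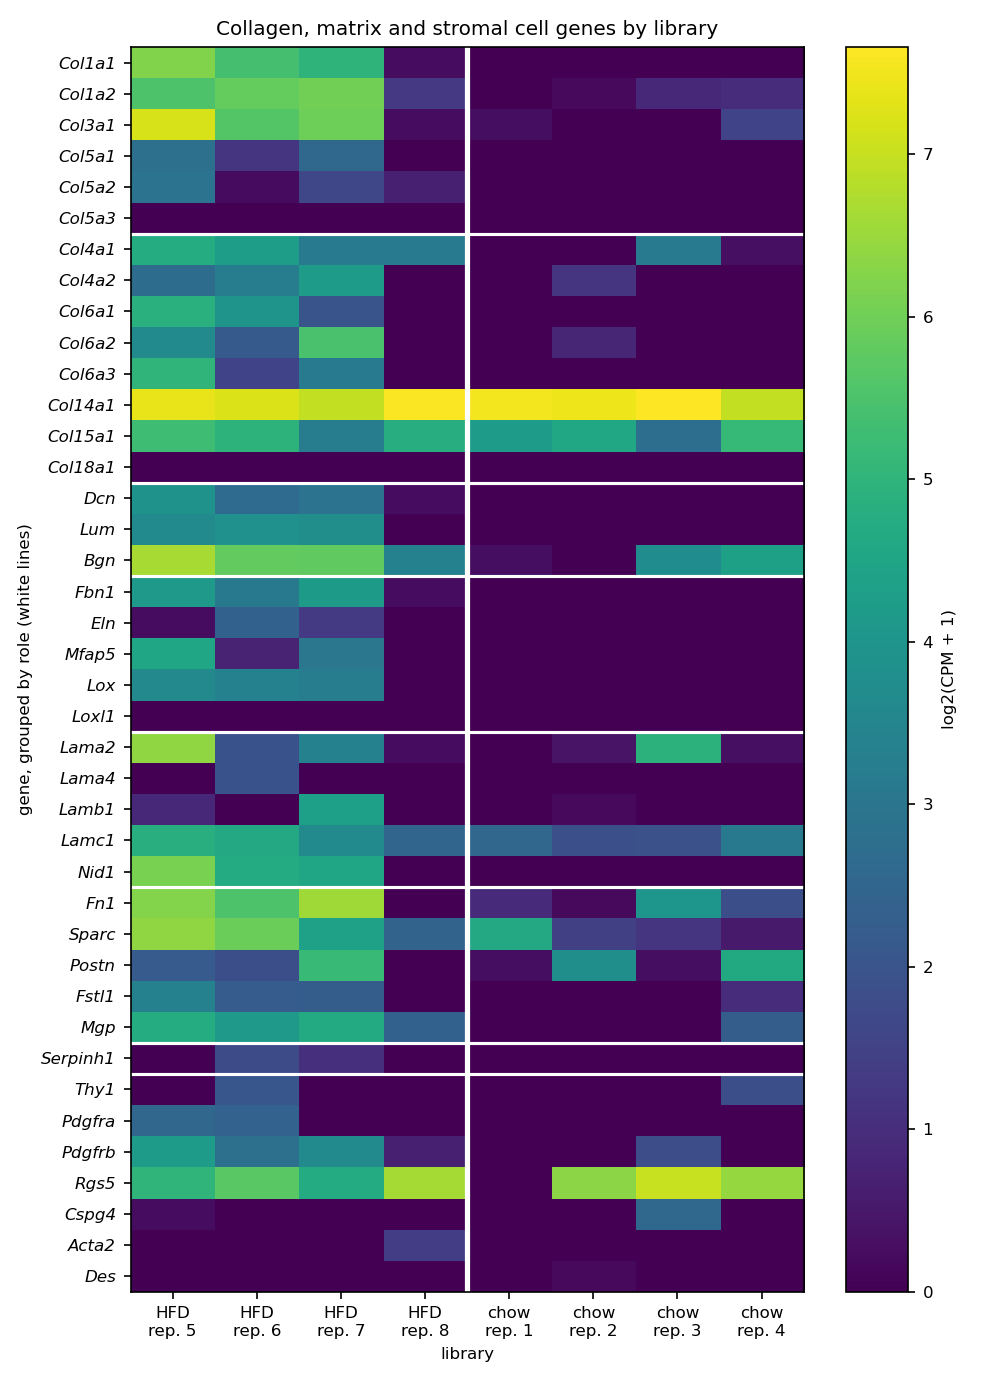
Level of each of the 40 genes, as log2(CPM + 1), in the 4 HFD libraries (left) and the 4 chow libraries (right), with white lines between role groups. Most rows are brighter in HFD replicates 5 to 7 than in HFD replicate 8 and in chow, though some are dark or nearly so throughout. Col14a1 is bright in all 8 libraries.

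**Figure D2:**
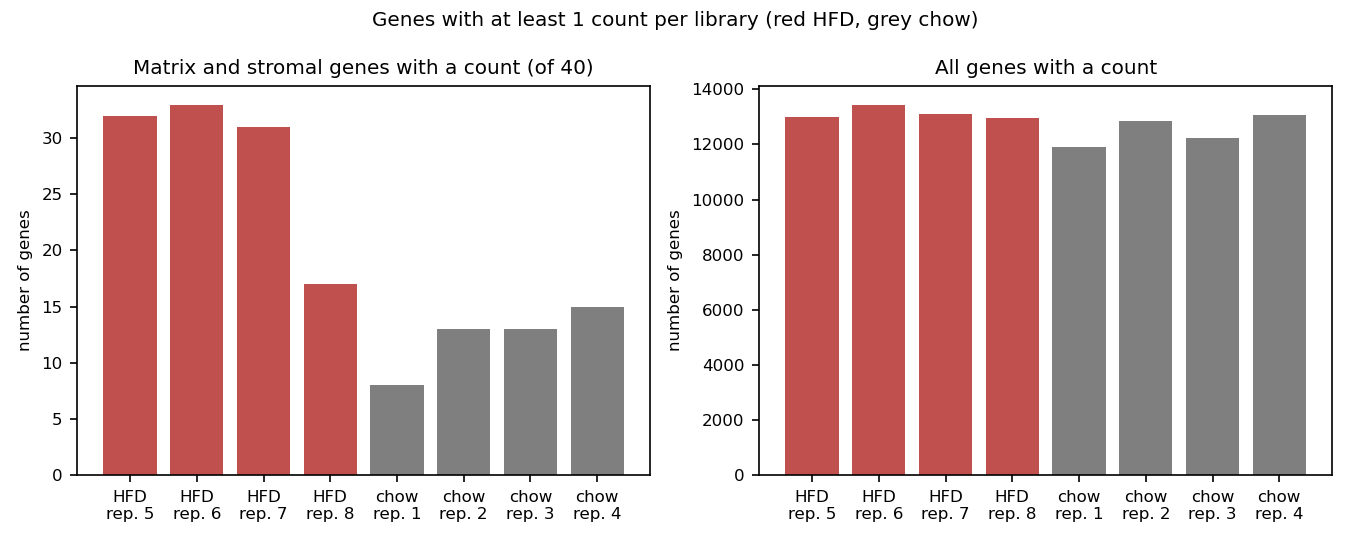
Number of the 40 matrix and stromal genes with at least 1 count (left) and of all genes with at least 1 count (right) in each library, HFD in red and chow in grey. The left bars stand at 31 to 33 in HFD replicates 5 to 7 and at 8 to 17 in the other libraries, while the right bars run from 11902 to 13448.

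Of the 40 genes, 16 had counts in HFD libraries only, 1 (Des) in chow only, 20 in both, and 3 in no library; among all 17969 genes with a count, 11.6% had counts in HFD only. The mean level was higher in HFD for 33 of the 37 detected genes and lower for Col14a1, Rgs5, Cspg4 and Des, against 51.3% of all genes higher. HFD replicate 5 held the highest value for 20 of the 37 genes, HFD replicate 6 for 5 and HFD replicate 7 for 7, while 13.6%, 11.3% and 12.1% of all genes peaked there. In HFD replicate 8, 23 of the 40 genes had no count, while 12953 of all 17969 genes with a count had one there. Of the 37 detected genes, 29 were at or below the highest chow library in HFD replicate 8, genes at 0 in both included. The share of all genes for which that held was not counted. As 1 library often lies below the highest of 4 others, that count does not set the list apart. These shares describe genes chosen with the comparison known.

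Across all genes, edgeR called 0 of 10129 genes between the diets (0.0%), and thus 0 of the genes described here. Its filter needs about 10 counts, at the median library size, in at least 4 libraries and 15 counts over all libraries. It kept 12 of the 40, Col4a1, Col14a1, Col15a1, Bgn, Lama2, Lamc1, Fn1, Sparc, Postn, Mgp, Pdgfrb and Rgs5. Genes that reached that count in 3 HFD libraries only were thus not tested. The 12 had edgeR adjusted p-values of 0.752 to 0.994, and 5 of them were among the 542 genes with an unadjusted p under 0.05. Their median log2 fold change was 2.27 with 10 higher and 2 lower, beside -0.02 and 48.6% higher over all genes tested, but a gene that passed the filter through its HFD counts had to differ. With the same count limit in at least 3 libraries, an alternative added after seeing the data, 24 of the 40 were tested and edgeR called 0 of 11085 genes (0.0%).

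Other settings did call some of the genes. Without HFD replicate 8, edgeR called 11 of 10711 genes, all higher in HFD (0.103%), among them Col1a1, Col1a2, Col3a1 and Nid1, with adjusted p-values of 0.0031 to 0.0072. These 4 genes passed the filter there through the HFD libraries where they were high. The library left out was the HFD library with the fewest of their counts, so these calls are a description and no support. With no filter edgeR called 26 of 17969 genes higher in HFD (0.145%), 5 of them from this list, the same 4 and Col6a1. DESeq2 called 92 of 12523 genes (0.735%), of which 62 were higher in HFD (0.495%), including 9 listed genes, Col1a1, Col1a2, Col3a1, Col6a1, Col6a3, Dcn, Lum, Fbn1 and Lox, while 6 others had no adjusted p there. limma-voom called 1 of 10129 genes (0.00987%), which was not in the list.

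The fibrillar collagens, which assemble into the thick fibres of connective tissue, were close to 0 in chow and in HFD replicate 8. Col1a1 (chromosome 11, 94936224 to 94953042) encodes the main chain of collagen I and was at 72.5, 41.2, 30.8 and 0.201 CPM in HFD replicates 5 to 8, with 0 CPM in each of the 4 chow libraries. The pooled HFD level of Col1a1 was at least 242-fold higher, taking 3 counts over the chow group (0.151 CPM) as its upper limit. Like the other such limits below, it covers counting error in chow only and not the spread between HFD libraries. It was 165-fold without HFD replicate 5, and the value in HFD replicate 8 is a single count. Its partner chain gene Col1a2 (chromosome 6, 4504814 to 4541544) was at 45.1, 56.3, 64.7 and 1.41 CPM in HFD and at 0, 0.156, 0.83 and 0.944 CPM in chow, a ratio of pooled CPM of 93.3. Col3a1 (chromosome 1, 45311538 to 45349706), the collagen III chain of distensible tissues, was at 144, 47.4, 61.5 and 0.201 CPM in HFD against 0.225, 0, 0 and 1.89 CPM in chow, a pooled ratio of 139. That ratio was 80.9 without HFD replicate 5, and 987 (95% exact interval 177 to 39031, counting error only) without chow replicate 4, which held 8 of the 9 chow counts. For all 3 genes HFD replicates 5 to 7 stood far above every chow library, and for Col3a1 HFD replicate 8 overlapped the chow libraries. Col3a1 shares exon bases with another gene model on its strand, and Nid1, Fn1, Fbn1 and Lama2, among others, with models on the opposite strand, so their counts are uncertain by such reads.

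Col5a1 and Col5a2, chains of the collagen V that starts fibril assembly, were low. Col5a1 was at 6.16, 1.22, 4.85 and 0 CPM in HFD, and Col5a2 at 6.55, 0.174, 2.11 and 0.603 CPM, both with 0 counts in chow. Col5a3 had no count in any library. Col3a1 and Col5a2 are neighbours, 24614 bases apart with 0 protein-coding genes between them, and were both highest in HFD replicate 5.

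The other collagens did not behave as a block. Col4a1 (chromosome 8, 11198423 to 11312826) and Col4a2, the chains of basement membrane collagen IV, are transcribed in opposite directions and overlap by 22 bases at their starts, so reads there cannot be assigned with certainty. Col4a1 was at 25.6, 18.2, 8.01 and 7.83 CPM in HFD against 0, 0, 7.67 and 0.236 CPM in chow (log2 fold change 2.90, SE 1.45), with chow replicate 3 just below HFD replicate 8. Without chow replicate 3 the fitted value was 7.30. Col4a2 was at 5.56, 8.51, 17.7 and 0 CPM in HFD, against 1.25 CPM in chow replicate 2 and 0 CPM in the other chow libraries.

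Collagen VI forms beaded microfilaments around cells. Col6a1 was at 28.0, 14.8, 2.95 and 0 CPM in HFD, Col6a2 at 11.3, 3.47, 42.6 and 0 CPM, and Col6a3 at 31.0, 1.91, 7.80 and 0 CPM. In chow Col6a1 and Col6a3 had no count and Col6a2 had 5 counts, all in chow replicate 2. The HFD levels of Col6a1 and Col6a3 were thus at least 77.7-fold and 66.0-fold higher against the group limit, with no count in HFD replicate 8. Without HFD replicate 5, which held 156 of the 204 HFD counts of Col6a3, these limits were 42.5-fold and 20.6-fold.

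Col14a1 (chromosome 15, 55307750 to 55520803) encodes collagen XIV, which binds to the surface of collagen fibrils, and had the highest level of the 40 genes per length. It was at 169, 151, 122 and 193 CPM in HFD and at 181, 176, 201 and 122 CPM in chow, so the diets overlapped (log2 fold change -0.10, SE 0.26). Col15a1, which encodes a collagen found near basement membranes, likewise overlapped, at 38.1, 29.7, 8.22 and 26.1 CPM in HFD and 17.5, 22.8, 5.81 and 34.0 CPM in chow (log2 fold change 0.35, SE 0.71). Both genes were detected in libraries where Col1a1 had no count. Col18a1, which encodes the precursor of endostatin, had no count in any library.

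**Figure D3:**
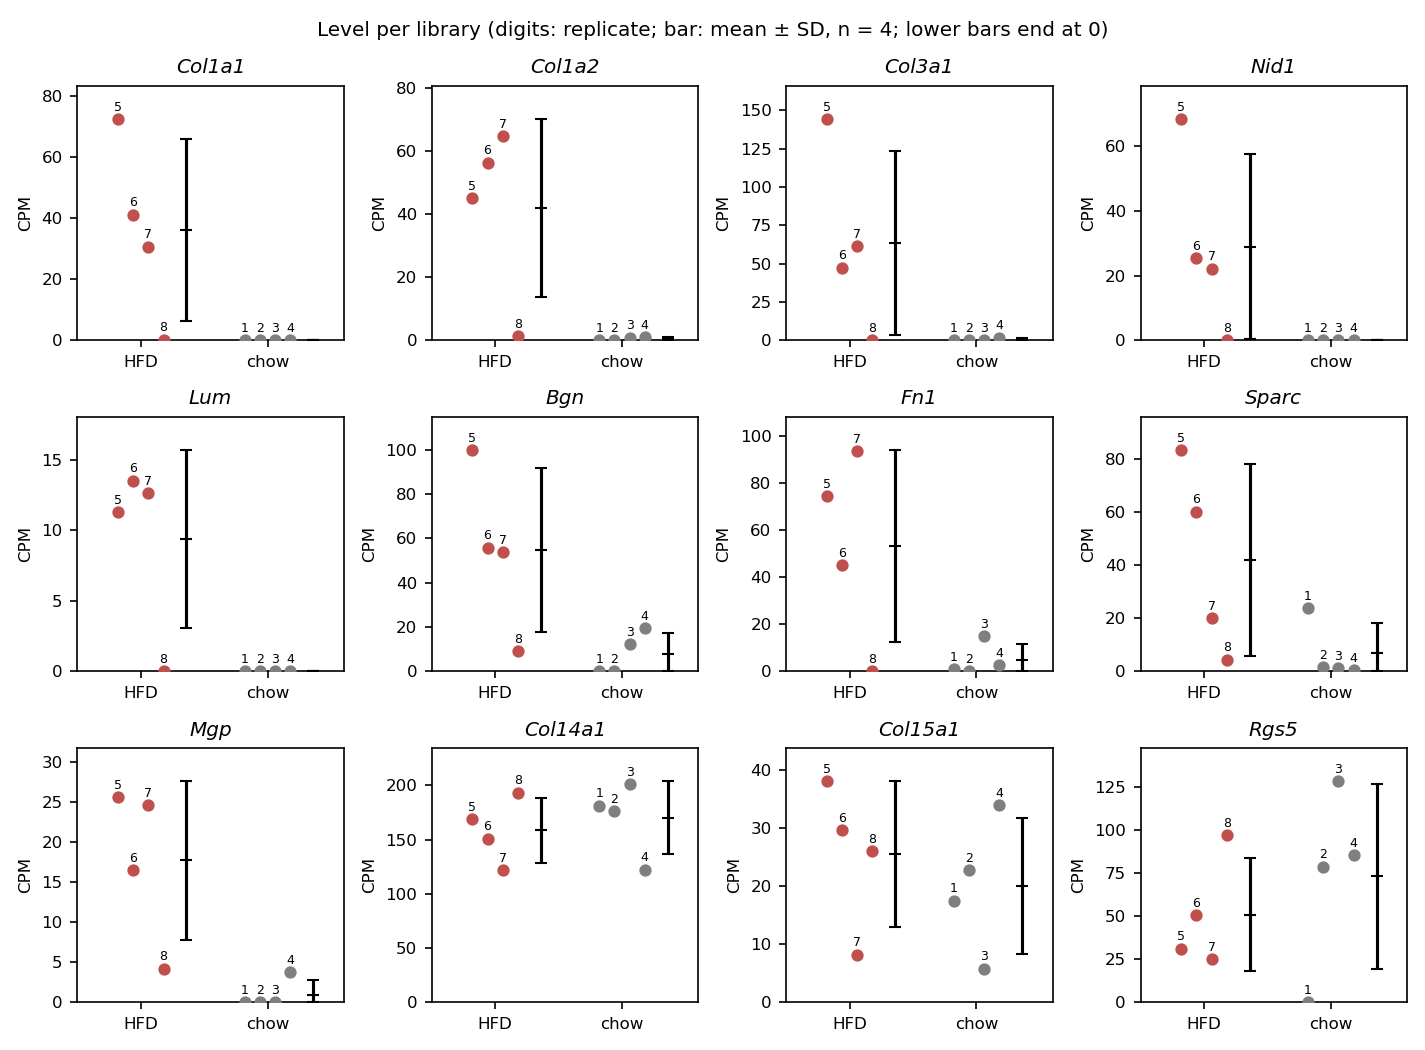
Level in CPM of 12 of the genes in each library (points, with the replicate number), HFD left and chow right, with the mean and SD of 4 libraries beside them. For Col1a1, Col1a2, Col3a1, Nid1 and Lum the points of HFD replicates 5 to 7 lie above all chow points and that of HFD replicate 8 is at most 1.41 CPM, while the diets overlap for Col14a1, Col15a1 and Rgs5.

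Small leucine-rich proteoglycans bind collagen and set the spacing of its fibrils. Bgn (biglycan) was at 99.7, 55.7, 53.7 and 9.24 CPM in HFD against 0.225, 0, 12.2 and 19.4 CPM in chow (log2 fold change 2.78, SE 1.18), and HFD replicate 8 lay below 2 chow libraries. Lum (lumican) was at 11.3, 13.5, 12.6 and 0 CPM in HFD and Dcn (decorin), a fibroblast marker, at 14.3, 5.38, 6.53 and 0.201 CPM. Neither Lum nor Dcn had a count in chow, so their HFD levels were at least 63.1-fold and 43.7-fold higher; without HFD replicate 5 the limit for Dcn was 27.0-fold. The 3 HFD values of Lum above 0 were the closest together of the group, whereas Dcn was highest in HFD replicate 5.

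The 5 listed genes of elastic fibres and of crosslinking had no count in chow at all. Fbn1, the fibrillin of microfibrils, was at 16.5, 7.47, 16.9 and 0.201 CPM in HFD replicates 5 to 8. Mfap5, a microfibril-associated glycoprotein, was at 22.05, 0.695, 7.17 and 0 CPM, with 111 of its 149 counts in HFD replicate 5. The lysyl oxidase gene Lox, whose product crosslinks collagen and elastin, was at 11.1, 9.38, 8.22 and 0 CPM. The group summed to 49.9, 21.7, 33.7 and 0.201 CPM in HFD, with HFD replicate 8 at 1 count. Eln (elastin) had 32 counts in HFD, and the related oxidase gene Loxl1 had none in any library. The absence from chow does not extend to related genes outside these 5, as the oxidase gene Loxl3 had counts in every library. Loxl3 was at 16.1, 7.64, 5.48 and 21.9 CPM in HFD and 11.9, 29.8, 17.2 and 6.14 CPM in chow.

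Among basement membrane genes, Nid1, which encodes the linker nidogen, was at 68.3, 25.4, 22.1 and 0 CPM in HFD replicates 5 to 8 and had no count in chow. Its HFD level was at least 193-fold higher against the group limit, or 108-fold without HFD replicate 5. Lamc1, the laminin gamma 1 chain shared by most laminins, was at 26.8, 23.4, 11.8 and 4.62 CPM in HFD and at 4.72, 2.65, 2.70 and 7.55 CPM in chow (log2 fold change 1.92, SE 0.98). HFD replicate 8 again lay within the chow values of Lamc1, which were above 0 in every library.

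Single libraries set the values of the other laminin chains. Lama2 was at 82.4, 2.78, 9.27 and 0.201 CPM in HFD and at 0, 0.312, 29.4 and 0.236 CPM in chow. The log2 fold change was 1.66 (SE 1.71) with all libraries, -0.88 (SE 1.82) when HFD replicate 5 was left out and 6.78 (SE 1.82) when chow replicate 3 was. Lamb1 had 94 counts in HFD, 90 of them in HFD replicate 7, and 1 count in chow, and Lama4 had 16 counts, all in HFD replicate 6.

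Matrix glycoproteins were above 0 in more of the chow libraries. Fn1 (fibronectin), which links cells to matrix through integrins, was at 74.7, 45.1, 93.6 and 0 CPM in HFD against 0.899, 0.156, 15.1 and 2.60 CPM in chow (log2 fold change 3.5, SE 1.48). HFD replicate 8 was the only library with no Fn1 count, so the gene was not detectable there at this depth, while all chow libraries had at least 1 count. Sparc, a collagen-binding matricellular protein gene, was at 83.2, 60.1, 20.0 and 4.42 CPM in HFD and 23.8, 1.72, 1.24 and 0.472 CPM in chow (log2 fold change 2.62, SE 1.06), with chow replicate 1 above HFD replicates 7 and 8. Mgp (matrix Gla protein), an inhibitor of calcification, was at 25.6, 16.5, 24.7 and 4.22 CPM in HFD against 0, 0, 0 and 3.78 CPM in chow (log2 fold change 4.23, SE 1.51), and its diets did not overlap. Without chow replicate 4, the only chow library with Mgp counts, the fitted value was 9.52. Without chow replicate 3 that of Fn1 was 5.48, and without chow replicate 1 that of Sparc was 5.14.

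Postn (periostin), a matricellular gene of activated fibroblasts, did not follow the collagens. It was at 3.58, 2.60, 35.8 and 0 CPM in HFD and at 0.225, 13.1, 0.207 and 24.3 CPM in chow, and its log2 fold change was 0.15 (SE 1.45), or -2.19 (SE 1.78) when HFD replicate 7 was left out. Fstl1, a secreted follistatin-like glycoprotein gene, was at 9.34, 3.65, 3.79 and 0 CPM in HFD and had 4 counts in chow, all in replicate 4. Serpinh1, the collagen chaperone of the endoplasmic reticulum, had 19 counts in HFD and 0 in chow, at 2.43 CPM in HFD replicate 6, 1.05 CPM in HFD replicate 7 and 0 CPM in HFD replicates 5 and 8.

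**Figure D4:**
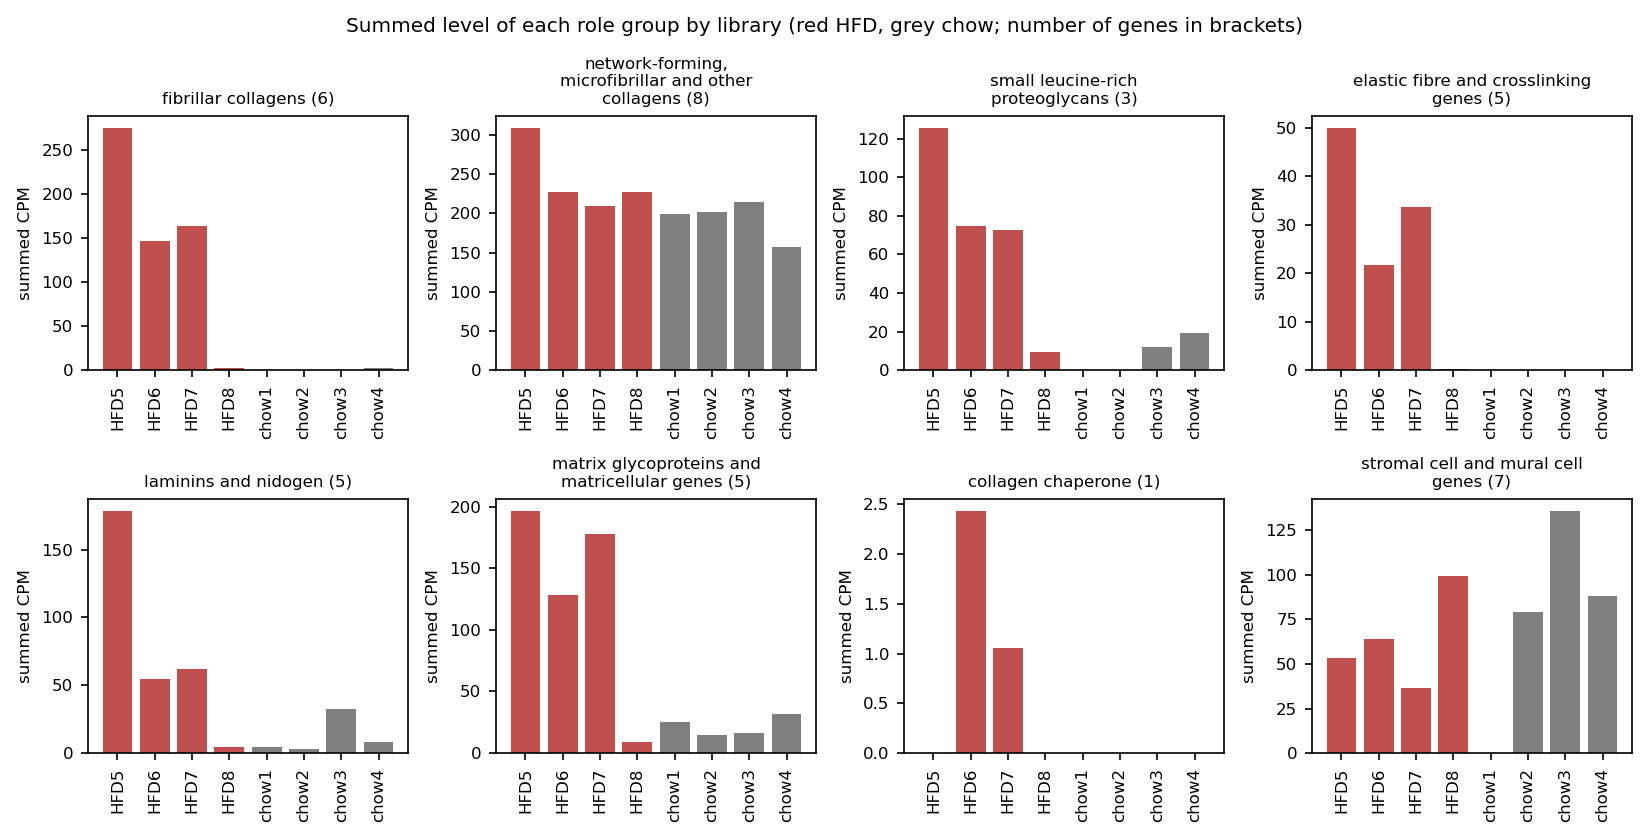
Summed CPM of each role group in each library, HFD in red and chow in grey, with the number of genes in brackets. Fibrillar collagens reach 146 to 275 CPM in HFD replicates 5 to 7 and at most 2.83 CPM elsewhere. The sum of stromal and mural cell genes shows no such step. Rgs5 makes up most of that sum wherever it is above 0, so the panel mainly shows that gene.

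Genes that mark stromal and mural cells gave a mixed picture. Pdgfrb, the receptor of fibroblasts and pericytes, was at 17.5, 6.08, 11.6 and 0.603 CPM in HFD against 0, 0, 2.49 and 0 CPM in chow (log2 fold change 3.80, SE 1.68), and the fitted value was 8.51 without chow replicate 3, which held all its chow counts. Pdgfra, a fibroblast receptor, was at 4.77, 4.34, 0 and 0 CPM in HFD and had no count in chow. Rgs5, a pericyte marker, was at 31.2, 50.5, 25.1 and 97.0 CPM in HFD and at 0, 78.8, 128 and 85.4 CPM in chow (log2 fold change -0.52, SE 1.13). The diets overlapped, and Rgs5 was highest in chow replicate 3 and HFD replicate 8, where fibrillar collagens were near 0.

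Acta2, Des, Cspg4 and Thy1 had no count in most libraries, whereas Postn, given above as a gene of activated fibroblasts, lacked counts only in HFD replicate 8. Acta2, the smooth muscle actin of myofibroblasts and activated stellate cells, had 8 counts, all in HFD replicate 8, where fibrillar collagens were near 0. Des (desmin) had 1 count in all 8 libraries. Cspg4 (NG2), a pericyte gene, had 1 count in HFD and 24 in chow replicate 3, and Thy1, a fibroblast surface gene, was at 3.13 CPM in HFD replicate 6 and 2.60 CPM in chow replicate 4 with 0 CPM elsewhere. Of the 7 stromal and mural cell genes, Pdgfra and Pdgfrb were thus detected mainly in HFD libraries. Acta2, Des and Cspg4 had few or no counts in HFD, and Thy1 had counts in 1 library of each diet. Rgs5 had the higher mean in chow, 73.2 CPM against 51.0 CPM in HFD, with the diets overlapping.

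Every HFD library lay above every chow library for 7 genes, Col1a1, Col1a2, Col5a2, Col4a1, Dcn, Fbn1 and Mgp, while this held for 1.33% of all 17969 genes with a count. For Col1a1, Dcn and Fbn1 that rests on 1 count in HFD replicate 8, and for Col5a2 on 1 count in HFD replicate 6 and 3 counts in HFD replicate 8. For the other genes HFD replicate 8 was close to the highest chow library. Its counts were 21 against 16 for Mgp, 39 against 37 for Col4a1 and 7 against 4 for Col1a2. Per kilobase of exon, mean levels in HFD were 22.6 ± 4.29 CPM for Col14a1, 14.95 ± 8.35 for Mgp, 11.2 ± 7.16 for Rgs5, 11.1 ± 9.55 for Sparc and 8.95 ± 6.06 for Bgn, and then 6.45 ± 6.11 for Col3a1 and 5.51 ± 4.54 for Col1a1 (SD, n = 4). In chow the order was Col14a1 at 24.3 ± 4.80 CPM per kilobase, Rgs5 at 16.1 ± 11.8, Col15a1 at 3.15 ± 1.84, Sparc at 1.80 ± 3.00 and Bgn at 1.30 ± 1.56. Each pair of neighbours in these orders differed by less than the larger of their SDs, except Rgs5 and Col15a1 in chow.

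Genes that modify collagen before or after its secretion were called in neither direction. Of 25 found, 13 were tested, with 0 called higher, 0 called lower and a median log2 fold change of 0.22, and 10 had a positive and 3 a negative fold change. The gene with the smallest p was Crtap, part of the prolyl 3-hydroxylation complex, at 23.6, 6.95, 3.16 and 2.41 CPM in HFD and 0.449, 0.156, 0 and 0.708 CPM in chow (log2 fold change 4.71, SE 1.53, edgeR adjusted p = 0.752). Its partner P3h1 was at 6.55, 0.347, 4.43 and 6.23 CPM in HFD against 0, 3.90, 0 and 0 CPM in chow. The prolyl 4-hydroxylase subunit P4ha1 and the galactosyltransferase Colgalt1 overlapped, at 40.1 ± 20.0 and 54.5 ± 34.2 CPM in HFD and 29.1 ± 22.5 and 46.7 ± 8.59 CPM in chow (SD, n = 4). All 4 HFD values of Crtap lay above all 4 chow values.

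Of 51 other matrix genes found, 14 had no count in any library, and 26, 23, 21 and 14 had a count in HFD replicates 5 to 8, against 11, 14, 15 and 13 in chow. Only 7 were tested, with 0 called higher, 0 called lower and a median log2 fold change of 0.42. Thbs1, which encodes the matricellular thrombospondin 1, was at 9.73, 22.7, 27.2 and 29.7 CPM in HFD and 6.07, 4.84, 11.8 and 12.5 CPM in chow (log2 fold change 1.34, SE 0.80). Its highest HFD value was in replicate 8. Tgfbi, which is also made by macrophages, was at 326 ± 84.4 CPM in HFD and 282 ± 84.8 CPM in chow (SD, n = 4). Matrix receptors and uptake genes were at 2293 ± 107 CPM in HFD and 2219 ± 177 CPM in chow summed over 21 genes (SD, n = 4), with 12 tested, 0 called higher, 0 called lower and a median of 0.11. Among them Itgb5, an integrin subunit, was at 177 ± 34.2 CPM in HFD and 235 ± 43.9 CPM in chow, and the hyaluronan receptor gene Cd44 at 176 ± 60.8 and 135 ± 43.3 CPM in the same order (SD, n = 4).

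Stellate and fibroblast markers outside the list were low, and single genes carried their sums. Of the 19 found, 2 were tested, with 0 called higher and 0 called lower. They summed to 84.2, 32.0, 29.9 and 31.3 CPM in HFD and 4.94, 0.781, 16.6 and 11.3 CPM in chow, with 11, 9, 8 and 3 of them detected in HFD and 3, 2, 4 and 3 in chow. C1s1, a complement protease gene, made up 52.4 CPM of the sum in HFD replicate 5, and Ngfr, a neurotrophin receptor gene, 20.3 CPM of that in HFD replicate 8; both were named after their values were seen. Clec3b, Tcf21, Twist1 and Twist2 had no count in any library. Prrx1, a mesenchymal transcription factor gene chosen after its values were seen, was at 16.9, 4.51, 4.22 and 0 CPM in HFD and 0 CPM in every chow library. Mmp2 and Fap, the tested pair, were at 7.02 ± 6.16 and 3.61 ± 2.49 CPM in HFD and at 2.75 ± 4.94 and 3.16 ± 3.61 CPM in chow (SD, n = 4).

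Pericyte and smooth muscle markers other than those listed summed to 10.8 to 44.6 CPM in HFD and 0.899 to 19.5 CPM in chow, and Kcnj8, Higd1b, Ndufa4l2, Myh11 and Tbx18 had no count. Endothelial markers summed to 1.00 to 13.7 CPM in HFD and 1.45 to 10.1 CPM in chow, with Flt1, Emcn, Esam and Erg at 0. Schwann cell markers were at most 3.62 CPM in HFD and 3.28 CPM in chow, ductal markers at most 4.22 and 2.12 CPM, and all 5 mesothelial markers had no count. Acinar markers summed to 94.9, 67.5, 1600 and 36.8 CPM in the HFD libraries against 0.225, 2.03, 1449 and 3315 CPM in the chow libraries. Endocrine markers summed to 957 to 1833 CPM in HFD and 444 to 1756 CPM in chow, with the highest value in HFD replicate 8.

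The 8 genes of perivascular and alternatively activated macrophages, of which 7 were tested with 0 called higher and 0 called lower, summed to 1663, 710, 1061 and 346 CPM in HFD and to 390, 447, 589 and 415 CPM in chow. Detected were 8, 8, 8 and 4 of them in HFD and 5, 5, 8 and 7 in chow. Most of the sum was Mrc1. Mrc1, the mannose receptor, which takes up collagen fragments, was at 1059, 522, 657 and 231 CPM in HFD and 202, 294, 321 and 228 CPM in chow. The scavenger receptor gene Cd163 was at 34.0, 17.4, 23.2 and 0 CPM in HFD and 0.225, 0, 0.83 and 21.5 CPM in chow. Stab1, another scavenger receptor gene, was at 385, 113, 199 and 104 CPM in HFD and 183, 73.1, 247 and 108 CPM in chow, and Lyve1, a hyaluronan receptor gene, at 10.7 ± 10.99 CPM in HFD and 12.9 ± 12.4 CPM in chow (SD, n = 4), so both overlapped; these were named after their values were seen. The part of these macrophages, and of the stromal markers above, in the collagen levels was not tested.

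**Figure D5:**
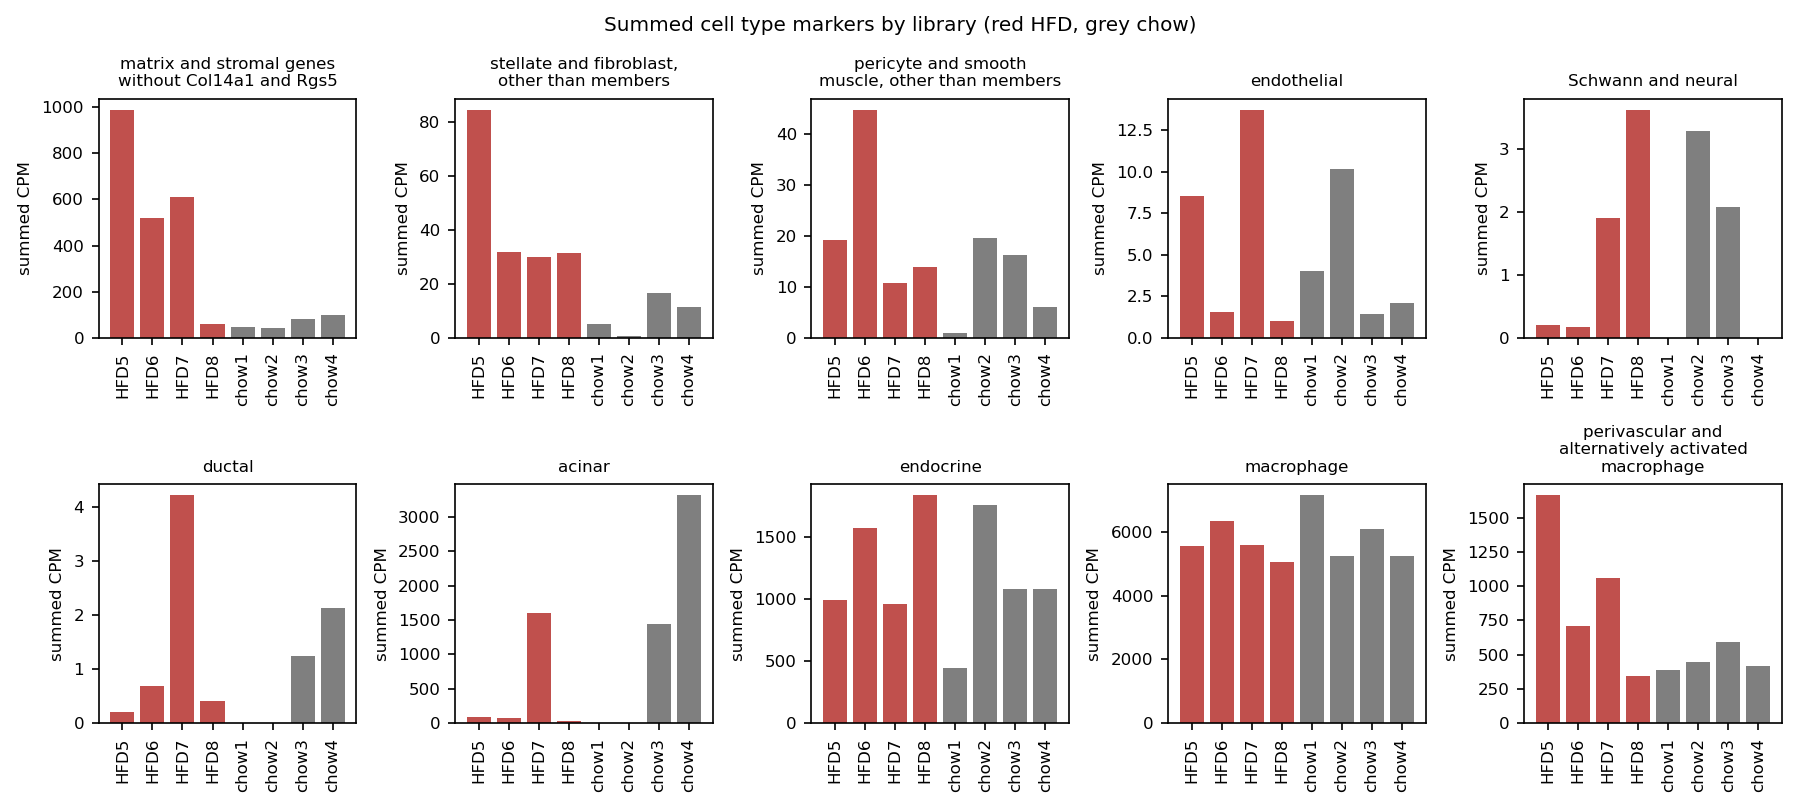
Summed CPM per library of the 40 genes without Col14a1 and Rgs5 and of 9 cell type marker lists, HFD in red and chow in grey, each panel with its own axis from 0. Stellate and fibroblast markers and perivascular macrophage markers are highest in HFD replicate 5, acinar markers in chow replicate 4, and endocrine markers in HFD replicate 8.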

How the data were processed

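RNA was measured in 4 HFD and 4 chow libraries. The authors aligned reads with STAR to GRCm38 after FastQC and Trim Galore, per the submitters' processing notes. Not given in the sources used here: versions, counting program, annotation release. Expected counts, unscaled, were deposited for 48440 Ensembl genes. Of the values above 0 in a library 7.66% to 8.32% were fractional, and none of the 40 genes had such a value. Counts were rounded. Nothing states strand or molecular identifiers, so amplified reads are not independent molecules. Replicates are separate pools of 2 mice.

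Genes were tested with edgeR (version 4.0.16; TMM, filterByExpr by diet, robust quasi-likelihood fit, Benjamini-Hochberg at 0.05, two-sided) over all genes. Log2 fold changes are HFD over chow. Pooled ratios divide summed counts by summed scaled totals. Folds given as at least a value set the pooled HFD level against 3 counts over the chow group. They make no allowance for spread between libraries. Alternatives were RLE scaling, library totals, no filter, DESeq2 (version 1.42.0), limma-voom (version 3.58.1) with quality weights, and each library left out; a filter over 3 libraries, a sum without Col14a1 and Rgs5 and pooled folds with each library left out were added after seeing the data. Coordinates and exon lengths are from GENCODE M21 (GRCm38), and promoters from RefSeq (GRCm38.p6). The 40 genes and all lists were chosen with earlier results of these data known. Values per library are given for up to 3 genes per role group with the highest mean, and for any gene called in a setting; the other members are given too, since all 40 are accounted for. From other lists up to 4 genes with the smallest p were eligible, besides the sort markers; Prrx1 falls outside this rule. Of 239 listed symbols 2 were not found. Data were simulated for HFD versus chow with the 10129 genes that passed the filter, so the 28 listed genes not tested are not covered. There edgeR called 2.67% of 2-fold, 34.7% of 4-fold, 54.0% of 8-fold and 76.7% of 16-fold changes.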

Additional observations from a re-analysis of the deposited data

Results flagged for a closer look

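A sample that stood far from the other 3 of its diet (Dixon's test at the 95% level) was found in 26 of 97 groups of values. Chance flags about 1 in 20 groups of normally spread values, but in 13 of the 26 only 1 library had any count, which fixes the ratio at its maximum, so that rate does not hold for them. Values are CPM. Among HFD libraries, replicate 5 stood apart for Lama2 at 82.4, for Cspg4 at 0.199 and for the stellate and fibroblast sum at 84.2. HFD replicate 6 stood apart for Lama4 at 2.78 and Thy1 at 3.13. HFD replicate 7 did so for Lamb1 at 19.0, Postn at 35.8, the ductal sum at 4.22 and the acinar sum at 1600. HFD replicate 8 did so for Lum at 0, with the nearest library at 11.3, and for Acta2 at 1.61.

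Among chow libraries, replicate 1 stood apart for Sparc at 23.8. Chow replicate 2 did so for Col4a2 at 1.25, Col6a2 at 0.781, Lamb1 at 0.156 and Des at 0.156, which are 1 to 8 counts. Chow replicate 3 did so for Col4a1 at 7.67, Lama2 at 29.4, Fn1 at 15.1, Pdgfrb at 2.49, Cspg4 at 4.98 and the laminin and nidogen sum at 32.1. Chow replicate 4 did so for Col3a1 at 1.89, Fstl1 at 0.944, Mgp at 3.78 and Thy1 at 2.60.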

How the results depend on the processing

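No paired analysis was possible because the diets share no replicate number (5 to 8 in HFD, 1 to 4 in chow). Genes called numbered 0 with edgeR, 92 with DESeq2, 45 with no filter and 1 with limma-voom, and 0 to 11 with 1 library left out, 11 of them without HFD replicate 8. Of the 40 genes, DESeq2 called 9, edgeR with no filter 5, and the fits without 1 library 0 to 4. The median log2 fold change of those tested, 2.27, was 4.55 with DESeq2, 4.88 with no filter, 4.16 with the filter in at least 3 libraries and 1.83 to 6.04 with 1 library left out. It ran from 1.83 to 2.42 without HFD replicate 5, 6 or 7, with 12 genes tested as in the fit to all libraries, and from 3.73 to 6.04 without HFD replicate 8 or any chow library, with 24 tested; no filter and DESeq2 tested 37. The summed level had a log2 ratio of 1.27, and 0.97 to 1.51 with 1 library left out. It was 3.00 without Col14a1 and Rgs5, which both had a lower mean in HFD. limma-voom reversed Postn to -0.48 and Rgs5 to 0.62, and the cause was not tested. With 1 library left out, log2 fold changes ran from -0.88 to 6.78 for Lama2, from -2.19 to 1.20 for Postn and from -0.24 to 0.00458 for Col14a1, so their direction rested on single libraries. With no change of direction they ran from 3.80 to 9.52 for Mgp, 2.48 to 7.30 for Col4a1, 3.24 to 8.51 for Pdgfrb, 3.08 to 5.48 for Fn1, 2.06 to 5.14 for Sparc and 2.32 to 3.71 for Bgn; fitted values of genes near 0 in chow depend on the prior count. RLE scaling and library totals called 0 genes each. Counts of 3 or fewer in 1 library lie within the limit that a count of 0 allows, which applies to HFD replicate 8 for Col1a1, Col3a1, Col5a2, Dcn, Fbn1, Lama2 and Pdgfrb and to HFD replicate 6 for Col5a2.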

Other observations

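Chains that assemble into one collagen did not keep 1 ratio across HFD replicates 5 to 7. Per exon length, the ratio of Col1a1 to Col1a2 was 3.04, 1.38 and 0.90, that of Col4a1 to Col4a2 was 4.09, 1.90 and 0.40, and that of Col6a1 to Col6a2 was 4.70, 8.08 and 0.13. Dcn and Lum, which lie 46984 bases apart on chromosome 10, had ratios of 0.53, 0.17 and 0.22. These are values of single libraries amplified from 500 pg of RNA, with no test.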
